A study of Mus musculus with 37 samples.

Results

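The 8 genes described here encode the cyclins that act in the G1 phase of the cell cycle and the kinases they activate: the D-type cyclins Ccnd1, Ccnd2 and Ccnd3, the E-type cyclins Ccne1 and Ccne2, and the kinases Cdk2, Cdk4 and Cdk6. They were taken by symbol from the 55487 genes of a liver RNA sequencing table, and each symbol matched 1 row. All 8 passed the filter on low counts. The study removed most of the liver from mice by partial hepatectomy, or operated without removing liver (sham), and asked whether loss of NADPH oxidase 4 alters how the liver grows back. The wild-type (WT) groups held 5 sham livers, then 3 livers at 6 h, 3 at 24 h, 4 at 48 h and 3 at 7 d after hepatectomy. Those of NOX4-/- mice (knockout, KO) held 5 sham livers, then 3, 4, 4 and 3. Each genotype has a single sham group, which mixes collection times from 6 h to 7 d in the WT and from 6 h to 72 h in the KO. The 6 h hepatectomy livers were all male and every other group held both sexes. The strain, the age of the mice and the construction of the deleted allele are not given in the sources used here. The labels name no animals, so the p-values measure the spread between libraries.

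D-type cyclins are made in response to growth signals and bind Cdk4 or Cdk6. The active kinases phosphorylate the retinoblastoma protein and its relatives, which releases E2F transcription factors. Ccne1 and Ccne2 are themselves E2F targets, and the E-type cyclins bind Cdk2 to start DNA replication. In the adult liver most hepatocytes rest outside the cycle, and hepatectomy brings them back into it, with Ccnd1 as the D-type cyclin most closely tied to that return.

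Promoter sequence is shown for the member that moved most, Ccne1, and for Cdk4, a kinase that passed the test in no comparison. For Cdk2 only its E2F-type sites are shown. The sequences are RefSeq reference sequence of GRCm38.p6, where 5 of the 8 members had an entry. Capitals in Cdk4 mark CACGTG, the E-box that Myc and its relatives can bind, which reads the same on both strands. Capitals in Ccne1 mark GGGCGG or its complement CCGCCC, the GC box. Capitals in Cdk2 mark GCGGGAA, the complement of the E2F-type motif TTCCCGC. The Cdk4 promoter lies at chr10:127063285-127063533 on the plus strand and the Ccne1 promoter at chr7:38107535-38107740 on the minus strand. The first Cdk2 site is at chr10:128705175-128705201 and the second at chr10:128705045-128705071, both on the minus strand.
Cdk4: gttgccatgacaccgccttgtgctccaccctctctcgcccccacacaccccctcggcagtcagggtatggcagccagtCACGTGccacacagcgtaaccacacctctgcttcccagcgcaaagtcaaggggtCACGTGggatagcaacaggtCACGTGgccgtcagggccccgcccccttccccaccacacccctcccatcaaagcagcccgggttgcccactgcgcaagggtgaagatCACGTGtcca
Ccne1: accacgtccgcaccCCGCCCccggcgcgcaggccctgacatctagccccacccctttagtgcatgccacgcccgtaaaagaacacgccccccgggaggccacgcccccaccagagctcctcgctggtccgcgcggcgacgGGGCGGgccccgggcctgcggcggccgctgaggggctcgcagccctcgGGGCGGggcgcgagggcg
Cdk2, first site: accaggaactGCGGGAAagttgtgcag
Cdk2, second site: ccagggaaacGCGGGAAggaggggcgg

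The Cdk4 promoter held 4 E-boxes, and 7 of 32851 promoter windows of 250 bases (0.0213%) held as many. At least 1 E-box was in 6.02% of the windows. The printed 206 bases of Ccne1 held 3 GC boxes and no match to CACGTG or TTCCCGC. Its full window of 250 bases held 4 GC boxes, and 4.09% of windows held 4 or more, while 32.7% held at least 1. The 250-base window of Cdk2 held 2 matches to TTCCCGC on either strand, which 0.18% of windows did, while 3.82% held at least 1. Only the outermost 17 bases of that window lie before an annotated exon, of Pmel on the opposite strand, so the Cdk2 sites may lie in transcribed sequence. The second Cdk2 motif ends 4 bases from the reference start, and the bases printed after it run past that start. TTCCCGC and GGGCGG can share letters, but no match printed here did. These matches describe the letters in the window and are not sites of binding, and a missing match says only that the letters are not there.

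Levels are given as CPM, the count of a gene relative to the library's total after TMM scaling between libraries. To compare genes with each other, CPM was divided by the length of the gene's merged exons in kb. On that scale the mean over the 37 libraries was 25.5 CPM per kb for Ccnd1, 8.64 for Cdk4, 4.21 for Ccnd3 and 2.18 for Ccne1. The other means were 1.20 for Cdk2, 0.990 for Cdk6, 0.678 for Ccnd2 and 0.233 for Ccne2. The genes differed widely in how far they varied: the highest library exceeded the lowest by 38.4 times for Ccne2, 30.8 times for Ccne1 and 14.2 times for Ccnd1, but only by 2.67 times for Cdk4 and 2.29 times for Ccnd3. Cdk2, Cdk6 and Ccnd2 lay between, at 7.21, 5.16 and 7.37 times. Ccne2 was counted at 2 to 141 reads per library, and its values carry the largest counting error.

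Total counts ranged from 26232544 to 48827025 per library, and the TMM factors ran from 0.658 to 1.36. Nox4 itself was at 0.778 to 23.5 CPM in the WT libraries and 0 to 4.98 CPM in the KO libraries, so the ranges overlapped, and averaged over the stages it was lower in the KO by 2.82 on the log2 scale (edgeR adjusted p = 4.27e-08). Nox4 was also higher in males than in females by 3.58 (edgeR adjusted p = 2.67e-09). WT 24 h replicate 3 carried 8.93% mitochondrial counts, the highest of the 37 libraries, which started at 3.17%. KO 24 h replicate 1 stood apart from its group in Ccnd1, Ccnd2 and the summed S-phase genes, and WT 48 h replicate 3 in the summed S-phase and mitosis genes, as given below. For the members, calls that involve these 3 libraries are given with and without them. Replicates of a group differed from each other well beyond counting noise. Of the 8 members, all except Ccne1 share some exon sequence with a gene on the opposite strand in GENCODE M21, from 34 bases of Cdk2 with Pmel to 1100 bases of Ccnd1 with LTO1. Whether the counting used strand is not given in the sources used here, so reads from these overlaps cannot be assigned with certainty.

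The tests are edgeR quasi-likelihood tests in 1 fit of all libraries with sex as a term, with Benjamini-Hochberg adjustment over 15564 genes and a threshold of 0.05. In the WT, 1 of the 8 members passed at 6 h against sham, where 7.86% of all genes did (4.16% higher and 3.7% lower), and it fell. At 24 h 0 members passed (0.925% of all genes), at 48 h 3 members rose (8.29% passed, 4.68% higher and 3.62% lower) and at 7 d 0 passed (0%). In the KO, 1 member rose and 1 fell at 6 h (6.62% passed, 4.11% higher and 2.51% lower). At 24 h 2 members rose and 1 fell (28% passed, 15.9% higher and 12% lower), at 48 h 4 rose (3% passed, 2.3% higher and 0.7% lower) and at 7 d 0 passed (0%). The share of members called was above the background at 48 h in both genotypes. It was also above it at 6 h in the KO, where 1 member rose and 1 fell, a count that moved with the setting as given below. At 24 h in the KO the share was near the background. The WT count at 48 h was 0 to 2 when 1 library was left out, 0 without the count filter and 0 with males alone, and the KO count was 3 to 5 when 1 library was left out. The median log2 change of the 8 members at 48 h was 0.62 in the WT and 0.88 in the KO, beside medians of 0.07 and -0.01 over all genes tested. Ccnd3 and Cdk4 passed in none of these 8 comparisons, with log2 changes from -0.04 to 0.42 and from -0.24 to 0.41. At an unadjusted p under 0.05, 1 member passed in the WT at 24 h, 0 in the WT at 7 d and 2 in the KO at 7 d, and DESeq2 called 0 members in each of these 3 comparisons.

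**Figure D1:**
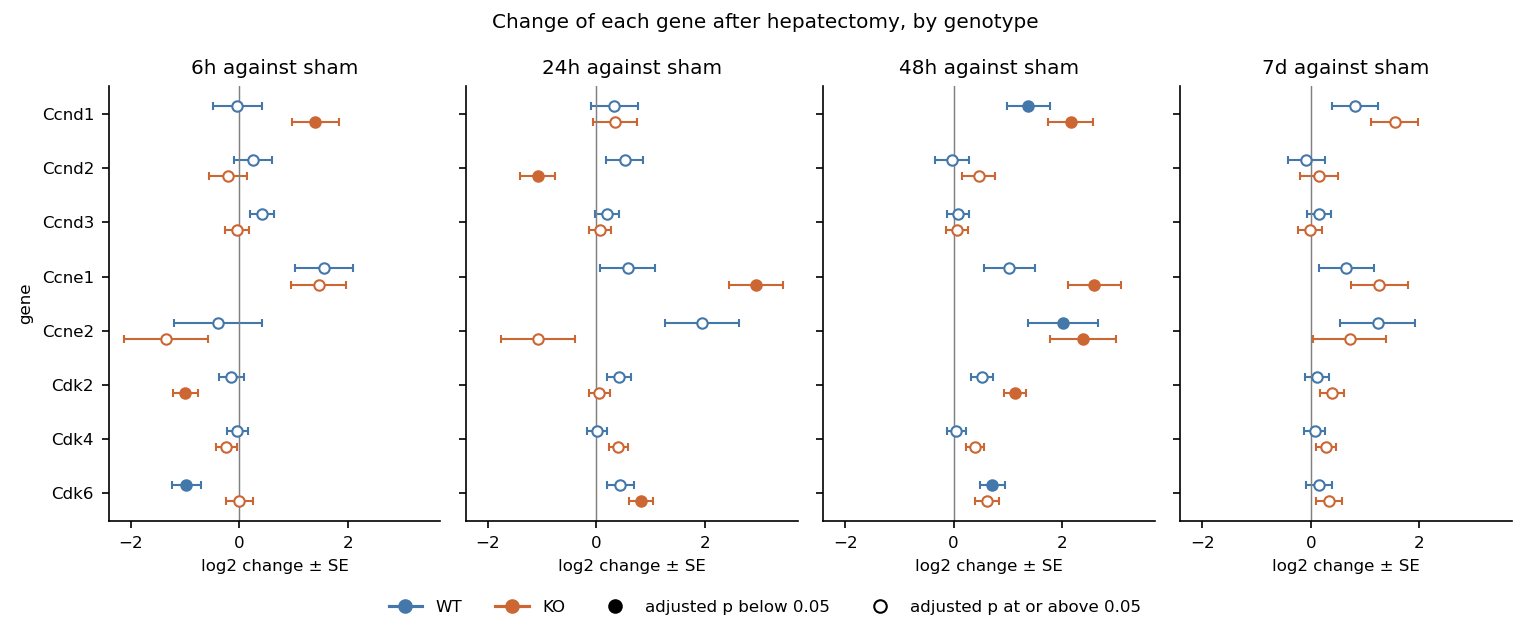
Log2 change against sham (x axis, edgeR estimate with SE) of each of the 8 genes (y axis) at each time after hepatectomy, WT in blue and KO in orange, with filled points where the adjusted p was below 0.05. The filled points gather at 48 h (3 in the WT and 4 in the KO) and none is filled at 7 d; Ccnd3 and Cdk4 have no filled point.

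Ccnd1, cyclin D1, carried most of the D-type signal and rose at 48 h in both genotypes. The WT sham livers had 65.9, 120, 62.4, 130 and 65.3 CPM, and the WT livers at 48 h had 188, 329, 196 and 146 CPM. All 4 values at 48 h lay above the 5 sham values. Ccnd1 rose by 1.38 on the log2 scale (SE 0.400, edgeR adjusted p = 0.0276). In the KO the sham livers had 32.4, 57.6, 79.6, 36.4 and 55.2 CPM and the 48 h livers 198, 169, 259 and 113 CPM. These groups did not overlap either, and the rise was 2.16 (SE 0.410, edgeR adjusted p = 0.00249). The call in the KO held when each library was left out, with changes from 1.86 to 2.49, and was narrowly lost without the sex term (1.82, edgeR adjusted p = 0.0505). The call in the WT was lost without any 1 of sham replicates 2 and 3 and 48 h replicates 1, 2 and 4, at edgeR adjusted p from 0.0529 to 0.0855, and stood at 1.54 without 48 h replicate 3. It was also lost without the sex term (1.28, adjusted p = 0.128), with males alone (1.36, adjusted p = 0.121) and without the count filter (adjusted p = 0.0516).

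At 6 h Ccnd1 had 91.1, 144 and 66.4 CPM in the KO and 78.2, 40.02 and 46.1 CPM in the WT. The KO livers overlapped their sham group in 1 library, and the WT livers lay within or below theirs. The rise in the KO passed the test (1.41, SE 0.433, edgeR adjusted p = 0.0456), but the call was lost in 7 of 8 fits that each left out 1 library, all except that without KO sham replicate 5, with changes from 1.05 to 1.63 and adjusted p up to 0.206. Only 2 of 7 other settings kept the call. It was lost without the sex term (0.946, edgeR adjusted p = 0.299) and with males alone (1.245, edgeR adjusted p = 0.0564). The difference between the genotypes in this change was 1.44 (95% interval 0.18 to 2.71) and did not pass (unadjusted p = 0.0266 in edgeR, adjusted p = 1). At 7 d the KO livers had 133, 174 and 242 CPM, all above the sham livers, while the 3 WT livers had 312, 84.1 and 61.7 CPM, so that only 1 of them, a female, stood above sham. The KO change of 1.55 (SE 0.429) had an unadjusted p of 0.00109 and an edgeR adjusted p of 0.979, in a comparison in which no gene passed.

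The 24 h livers were the most uneven for Ccnd1. The KO group had 210, 37.1, 23.2 and 66.6 CPM and the WT group 39.1, 216 and 69.2 CPM. In each group 1 female liver stood far above the others. Over all libraries Ccnd1 was lower in males than in females by 1.05 on the log2 scale (SE 0.230, edgeR adjusted p = 0.00439), the 1 member of 8 that passed for sex, where 3.59% of all genes did (1.61% higher and 1.97% lower in males). That call held in all 37 fits that left out 1 library, with differences from -1.24 to -0.90. In the groups with both sexes the female mean was the higher in each but 1: at 48 h in the KO the 1 female liver had 113 CPM and the males 169 to 259 CPM.

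**Figure D2:**
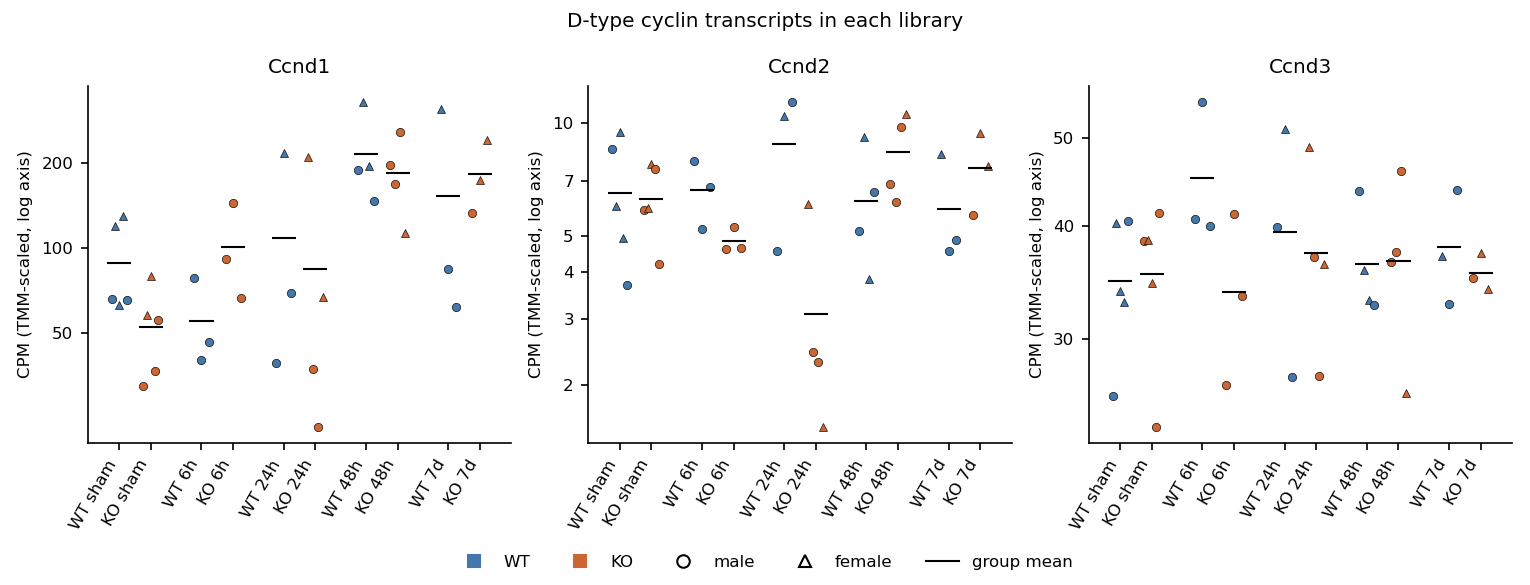
CPM (TMM-scaled, log axis) of Ccnd1, Ccnd2 and Ccnd3 in each of the 37 libraries by genotype and stage; circles are males, triangles females and bars the group means. Ccnd1 at 48 h lies above sham in both genotypes, Ccnd2 has its 3 lowest values in KO livers at 24 h, and Ccnd3 overlaps sham at every stage in both genotypes.

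Ccnd2, cyclin D2, the least abundant D-type cyclin per length, fell at 24 h in the KO. The KO sham livers had 5.86, 5.95, 7.78, 7.55 and 4.203 CPM and the KO livers at 24 h 6.08, 2.45, 2.31 and 1.55 CPM. Replicate 1 stayed within the sham range and the other 3 were the lowest of all 37 libraries. The fall was -1.08 (SE 0.327, edgeR adjusted p = 0.0142). It was -1.53 without replicate 1, and the call was lost without replicate 4 (-0.84, adjusted p = 0.0747). The WT livers at 24 h had 4.57, 10.4 and 11.4 CPM, and the difference between the genotypes at 24 h was -1.59 (SE 0.362, edgeR adjusted p = 0.00481). That call held in all 7 fits that left out 1 library, with differences from -2.03 to -1.29, the latter without WT 24 h replicate 3. With the 2 groups fitted alone the difference was similar in size (-1.70), but no gene of the whole table passed there.

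The fall of Ccnd2 came together with lower levels of markers of several non-hepatocyte cell types. In the KO at 24 h against sham, 8 of 10 Kupffer cell and macrophage markers, 6 of 8 T and NK cell markers, 2 of 4 B cell markers and 4 of 8 sinusoidal endothelial markers fell, and 1 endothelial marker rose, where 12% of all genes were called lower. Without KO 24 h replicate 1 the markers called numbered 9, 7, 1 and 5 in the same order. Leaving out 1 library at a time gave 6 to 9, 4 to 8, 0 to 2 and 3 to 6, with no B cell marker called without KO sham replicate 4 or KO 24 h replicates 2, 3 or 4, and T and NK cell markers at 4 without KO sham replicate 2 or KO 24 h replicates 3 or 4. The endothelial count was 3 without KO 24 h replicate 3. With the compared groups alone the counts were 4, 1, 0 and 3. The summed endothelial markers ran from 64.8 to 93.7 CPM in these livers, from 85.7 to 163 CPM in KO sham and from 93.2 to 207 CPM in the WT at 24 h. The summed Kupffer markers ran from 138 to 382 CPM against 328 to 508 CPM in KO sham, and the summed T and NK markers from 0.443 to 1.79 CPM against 1.87 to 6.78 CPM. No marker of these 4 lists was at 0 in all libraries of these groups. In the same comparison, 0 of 7 stellate and 0 of 5 neutrophil markers tested were called, with medians of -0.10 and 0.71. Between the genotypes at 24 h, 7.5% of all genes were called lower in the KO. So were 3 of 10 Kupffer, 1 of 8 T and NK, 0 of 4 B, 5 of 8 endothelial and 1 of 7 stellate markers. Leaving out 1 library gave 0 to 6, 0 to 4, 0, 2 to 6 and 1 to 2 called, and the compared groups alone gave 0 for each. In the WT at 48 h against sham the list medians were -0.57 (Kupffer), -1.72 (T and NK), -1.46 (B) and -0.97 (endothelial). Ccnd2 changed there by -0.04. Over the 37 libraries the 3 genes whose log2 levels followed Ccnd2 most closely were Gimap4, a lymphocyte and endothelial GTPase (Pearson r = 0.862), Btnl9 (0.851) and Oxct1 (0.826). In whole tissue, fewer cells of a type and less RNA per cell cannot be told apart, and the part of cell composition in the Ccnd2 result was not tested.

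Ccnd3, cyclin D3, varied least of the 8 genes between libraries. Its group means ran from 33.8 CPM in the KO at 6 h to 45.2 CPM in the WT at 6 h, and the extremes of single libraries were 24.0 and 54.8 CPM. Neighbouring groups in that order differed by less than their SDs, which were 1.69 to 11.99 CPM. Ccnd1 made up 78.9% ± 5.88 (SD, n = 5) of the length-scaled D-type counts in WT sham and 89.9% ± 2.71 (n = 4) in the WT at 48 h. In the KO the share was 69.0% ± 7.22 (n = 5) in sham and 88.1% ± 2.02 (n = 4) at 48 h. Ccnd3 took most of the difference, with 26.5% ± 6.80 of the KO sham signal and 9.63% ± 1.05 at 48 h. These percentages depend on the length used. Merged exons span 8775 bases for Ccnd3 and 4709 for Ccnd1, while the longest transcripts span 3858 and 3740. With transcript length the Ccnd1 shares are lower and the Ccnd3 shares higher. Neither pair of Ccnd1 groups overlapped and both reached the smallest two-sided exact permutation p that 4 against 5 livers allow, 0.0159. After adjustment over the 13 comparisons of the share this became 0.103, and none of the 65 comparisons of shares within a family passed (14 had an unadjusted p under 0.05).

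**Figure D3:**
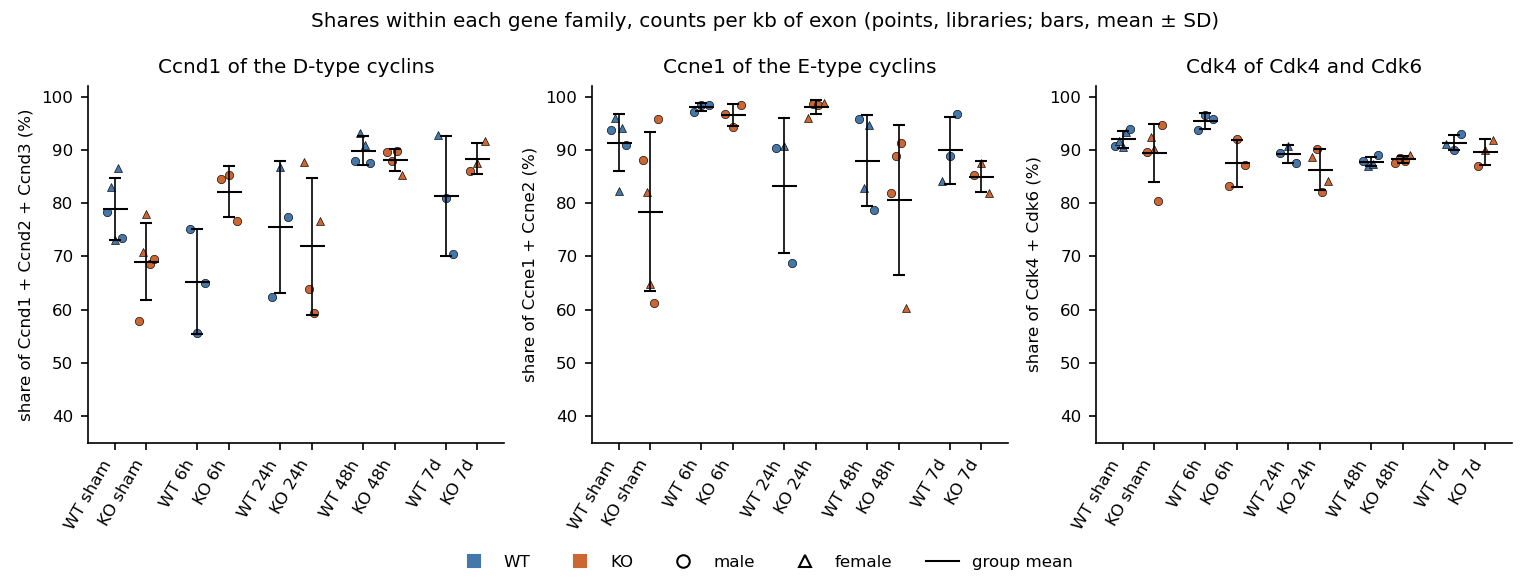
Share (%) of Ccnd1 in the D-type counts, of Ccne1 in the E-type counts and of Cdk4 in the counts of Cdk4 and Cdk6, after division by exon length, for each library with the group mean and SD; circles are males and triangles females, and the y axis starts at 35%. The Ccnd1 share lies between 85.4% and 93.2% in all 8 livers at 48 h, and the Ccne1 share between 94.3% and 98.9% at 6 h in both genotypes and at 24 h in the KO.

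Ccne1, cyclin E1, was the member with the largest change, in the KO at 24 h and 48 h. The KO sham livers had 2.26, 0.644, 0.947, 1.49 and 3.58 CPM. At 24 h the KO livers had 3.94, 9.07, 17.9 and 19.9 CPM, and at 48 h 13.3, 14.7, 11.8 and 4.44 CPM. Every value at both times lay above every sham value. Ccne1 rose by 2.94 at 24 h (SE 0.49, edgeR adjusted p = 0.000118) and by 2.599 at 48 h (SE 0.484, edgeR adjusted p = 0.00233). Both calls held in each of the 9 fits that left out 1 library and in all 7 other settings, and the change at 24 h was 3.20 without replicate 1. In the WT the sham livers had 1.95, 4.27, 1.37, 1.63 and 3.12 CPM, the 24 h livers 1.32, 6.25 and 3.66 CPM and the 48 h livers 5.62, 4.60, 3.88 and 7.14 CPM. The WT groups overlapped sham at both times, and the change at 48 h, 1.03 (SE 0.471), did not pass (edgeR adjusted p = 0.183).

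At 24 h Ccne1 was higher in the KO than in the WT by 1.73 (SE 0.559, edgeR adjusted p = 0.0308), and the response to hepatectomy differed between the genotypes by 2.36 (SE 0.720, edgeR adjusted p = 0.0388). The first call was lost without WT 24 h replicate 1 (1.28), WT 24 h replicate 3 (1.52), KO 24 h replicate 3 (1.61) or KO 24 h replicate 4 (1.23), with adjusted p from 0.0800 to 0.173. Without KO 24 h replicate 1 it was 2.02 and passed. At 48 h the difference in response was 1.57 (95% interval 0.20 to 2.93) and did not pass (edgeR adjusted p = 0.574). At 6 h Ccne1 stood at 5.66, 8.003 and 12.2 CPM in the WT and 8.57, 2.28 and 4.80 CPM in the KO. The WT values lay above all WT sham values and the KO values did not. Neither change at 6 h passed (1.56 and 1.47, edgeR adjusted p = 0.0649 and 0.0780), although the WT change passed with DESeq2 (1.52) and without WT sham replicate 2 (1.89), and the KO change without KO sham replicate 5 (1.85) or KO 6 h replicate 2 (1.83). In order of group means, the KO at 24 h (12.7 ± 7.50 CPM, n = 4) and 48 h (11.1 ± 4.58, n = 4) led, then the WT at 6 h (8.63 ± 3.32, n = 3), and each of these differed from its neighbour by less than 1 SD.

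Ccne2, cyclin E2, had another time course. The KO livers at 48 h had 3.84, 2.45, 1.48 and 3.84 CPM, against 0.403, 0.184, 0.673, 1.24 and 0.208 CPM in KO sham, without overlap. The rise was 2.39 (SE 0.613, edgeR adjusted p = 0.0251), but the call was lost without any 1 of KO sham replicates 1, 2, 3 and 5 and KO 48 h replicates 1 and 4, at changes of 2.10 to 2.48 and adjusted p from 0.0536 to 0.0978. In the WT at 48 h the values were 0.327, 1.25, 0.285 and 2.55 CPM against 0.136 to 0.407 CPM in sham. Only replicates 2 and 4 stood above sham. The change of 2.02 (SE 0.638, edgeR adjusted p = 0.0447) was lost without any 1 of 6 libraries, WT sham replicates 1 to 4 and WT 48 h replicates 2 and 4, and was 1.18 without the last of these (adjusted p = 0.299). Without WT 48 h replicate 3 it was 2.35.

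At 24 h the E-type cyclins went apart. In the KO, where Ccne1 was high, Ccne2 had 0.211, 0.177, 0.355 and 0.293 CPM, of which 3 lay within its sham range and 1 just below it. In the WT at 24 h Ccne2 had 0.185, 0.834 and 2.19 CPM, so the high values were in replicates 2 and 3. The difference between the genotypes did not pass (-2.02, edgeR adjusted p = 0.0535), was -1.04 without WT 24 h replicate 3, and passed without WT 24 h replicate 1 (-2.52, adjusted p = 0.0282). The response differed between the genotypes by -3.03 (SE 0.974, edgeR adjusted p = 0.0489), opposite in sign to that of Ccne1. Together with Ccnd2 (-1.60, SE 0.471, edgeR adjusted p = 0.0337), 3 of 8 members passed for the interaction at 24 h, where 8.47% of all genes did (5.52% higher and 2.96% lower). Without WT 24 h replicate 3 none of the 3 passed (Ccne1 2.17, Ccne2 -2.12 and Ccnd2 -1.33, with adjusted p of 0.133, 0.221 and 0.143), and each was lost in 9 to 11 of the 17 fits that left out 1 library. Without KO 24 h replicate 1 all 3 passed, at 2.62, -2.97 and -2.02.

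**Figure D4:**
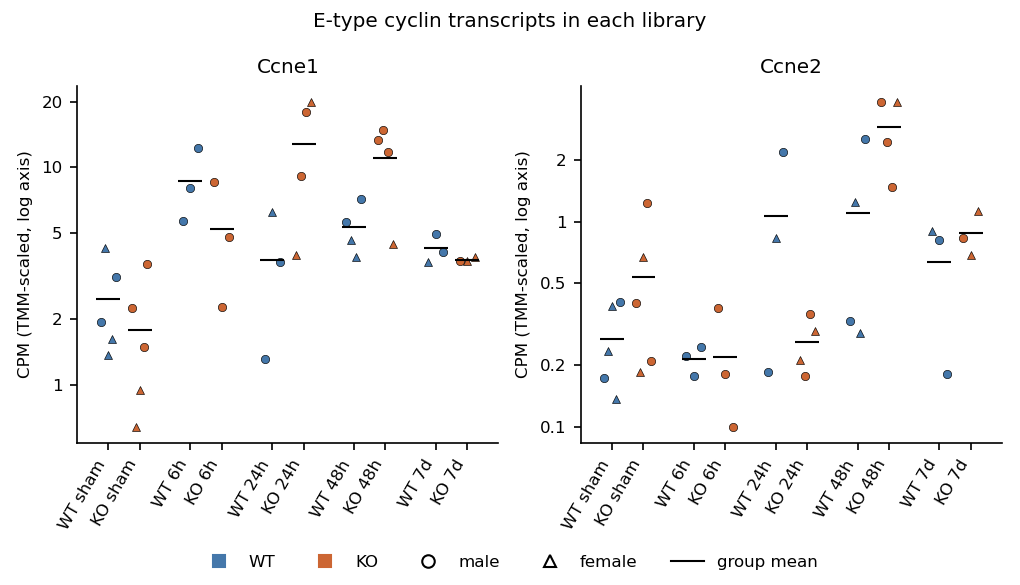
CPM (TMM-scaled, log axis) of Ccne1 and Ccne2 in each of the 37 libraries by genotype and stage; circles are males, triangles females and bars the group means. In the KO livers at 24 h Ccne1 runs from 3.94 to 19.9 CPM, above the KO sham livers, while Ccne2 runs from 0.177 to 0.355 CPM, where the KO sham livers start at 0.184 CPM.

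Cdk4, the more abundant of the D-type partners, passed in no comparison with sham. Its WT group means ran from 28.1 to 30.1 CPM over all 5 stages and its KO means from 20.2 CPM at 6 h to 31.4 CPM at 24 h. The KO livers at 6 h had 18.4, 25.1 and 17.0 CPM. In the KO the sham livers had 21.1, 27.4, 21.2, 19.7 and 29.1 CPM and the 48 h livers 33.7, 32.9, 30.7 and 27.9 CPM. The KO groups overlapped at their edges. The KO changes of 0.41 at 24 h and 0.40 at 48 h did not pass (edgeR adjusted p = 0.0723 and 0.286). At 24 h the KO livers had 30.7, 45.4, 20.3 and 29.3 CPM. When 1 library was left out, the change at 24 h ran from 0.16 to 0.58, with edgeR adjusted p from 0.0145 to 0.520. It passed without KO sham replicate 5 (0.49) or KO 24 h replicate 3 (0.58). Reads of Cdk4 could include those of Tspan31, which overlaps it by 641 bases on the opposite strand.

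Cdk6, the other D-type partner, moved more. In the WT it had 11.9, 12.1, 11.9, 10.04 and 7.16 CPM in sham and 7.59, 5.09 and 4.59 CPM at 6 h. Only 1 of the 3 livers at 6 h reached the sham range, at the level of the sham liver taken at 6 h. The fall was -0.97 (SE 0.268, edgeR adjusted p = 0.0244), and the call was lost without WT sham replicate 1 or WT 6 h replicates 2 or 3 (-0.95 to -0.84, adjusted p from 0.0691 to 0.168). At 48 h the WT livers had 18.5, 18.2, 17.3 and 16.7 CPM, all above sham. The rise was 0.72 (SE 0.224, edgeR adjusted p = 0.0418), with changes from 0.58 to 0.78 when each library was left out. That call was lost in 8 of 9 such fits, all except that without WT sham replicate 2, with adjusted p up to 0.133, and the change was 0.69 without WT 48 h replicate 3.

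In the KO, Cdk6 had 16.8, 21.1, 19.1 and 23.7 CPM at 24 h against 10.5, 9.81, 9.996, 20.6 and 7.16 CPM in sham. The sham liver taken at 72 h, replicate 4, lay among the 24 h livers, and the other 4 lay below them. The rise was 0.82 (SE 0.224, edgeR adjusted p = 0.00766) and held in all 9 fits that left out 1 library, from 0.68 to 1.04, with 0.88 without KO 24 h replicate 1. It was lost with the compared groups alone (0.77, adjusted p = 0.134) and with males alone (0.59, adjusted p = 0.271). At 48 h the KO livers had 20.6, 18.5, 18.3 and 14.7 CPM, and the change of 0.61 did not pass (edgeR adjusted p = 0.157) but did without that 72 h sham liver (0.91, adjusted p = 0.00786). At 6 h the KO livers had 16.0, 9.31 and 10.9 CPM, all above the WT livers at 6 h. That difference of 1.06 (SE 0.280) had an unadjusted p of 0.000621 and did not pass after adjustment (edgeR adjusted p = 0.126), in a comparison where 0 of 8 members and 0.116% of all genes passed. Without KO 6 h replicate 2 the Cdk6 difference passed (1.22, adjusted p = 0.0348), and DESeq2 called 2 members there, Cdk6 and Cdk2. Averaged over the stages Cdk6 was higher in the KO by 0.37 (SE 0.113, edgeR adjusted p = 0.0639), and 0 of 8 members passed against 2.72% of all genes, while DESeq2 called Cdk6. The Cdk6 average passed in 4 of the 37 fits that left out 1 library, those without KO sham replicate 5, KO 6 h replicate 2, KO 24 h replicate 1 or WT 24 h replicate 3.

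Cdk2, the kinase of the E-type cyclins, was lowest in the KO at 6 h and highest in the KO at 48 h. The KO sham livers had 7.49, 6.90, 6.23, 5.85 and 4.24 CPM, the 6 h livers 3.44, 3.44 and 2.30 CPM and the 48 h livers 16.6, 13.2, 14.0 and 10.3 CPM. Neither group overlapped sham. The fall at 6 h was -0.998 (SE 0.232, edgeR adjusted p = 0.00858) and was lost without KO 6 h replicate 3 (-0.83, adjusted p = 0.0718), with the compared groups alone (adjusted p = 0.164) and with males alone (adjusted p = 0.0761). The rise at 48 h was 1.14 (SE 0.199, edgeR adjusted p = 0.00185) and held in each of the 9 fits that left out 1 library and in all 7 other settings. In the WT Cdk2 had 6.51, 7.65, 5.47, 6.85 and 5.26 CPM in sham and 7.74, 8.86, 7.56 and 12.5 CPM at 48 h. These groups met at their edges, and the change of 0.53 (SE 0.198) did not pass (edgeR adjusted p = 0.0948). The difference between the genotypes in the response at 48 h was 0.61 (95% interval 0.04 to 1.18, edgeR adjusted p = 0.611).

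**Figure D5:**
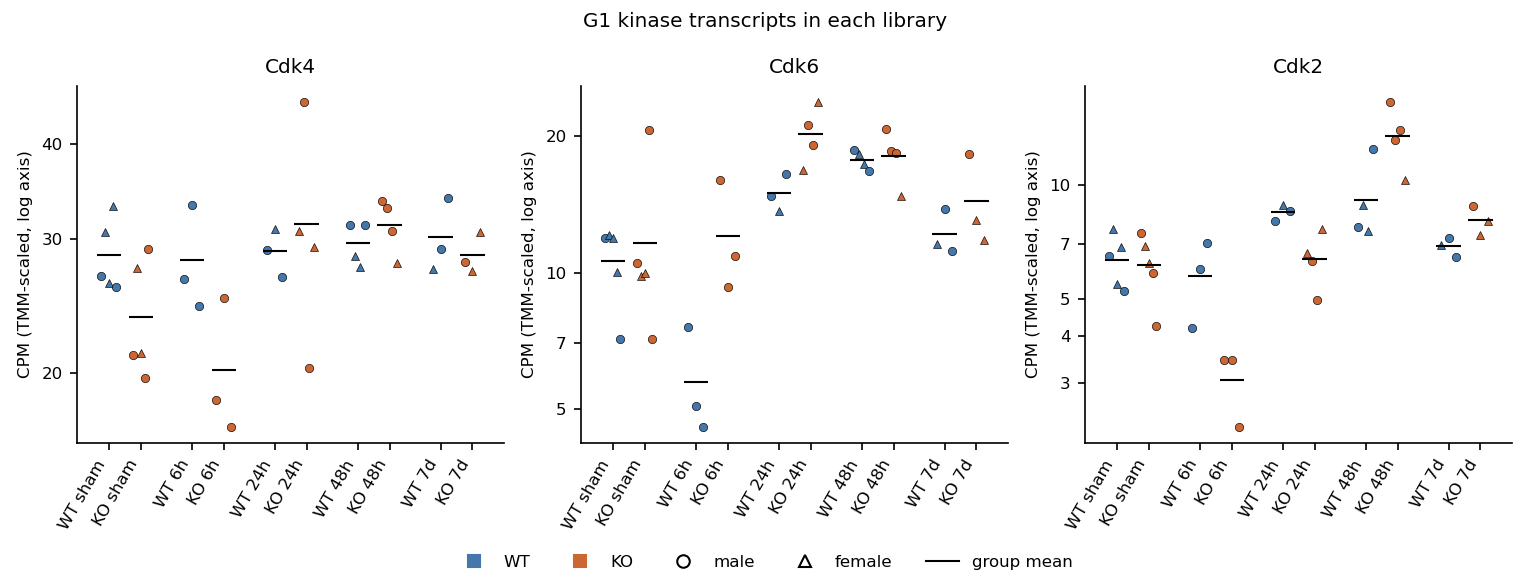
CPM (TMM-scaled, log axis) of Cdk4, Cdk6 and Cdk2 in each of the 37 libraries by genotype and stage; circles are males, triangles females and bars the group means. Cdk2 in the KO runs from 2.30 to 3.44 CPM at 6 h and from 10.3 to 16.6 CPM at 48 h, on either side of sham, and Cdk6 in the WT has its lowest values at 6 h.

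Between the genotypes at a given stage, the members passed only at 24 h. There 2 of 8 passed, Ccne1 higher and Ccnd2 lower in the KO, where 18.6% of all genes passed (11.1% higher and 7.5% lower). In sham, at 48 h and at 7 d 0 members passed in edgeR and in DESeq2 (0.276%, 0.341% and 0.045% of all genes in edgeR), and at an unadjusted p under 0.05 there were 0, 2 and 0. The 2 at 48 h were Ccne2 (1.38, 95% interval 0.08 to 2.67) and Cdk2 (0.56, 95% interval 0.13 to 0.99). For the interaction at 6 h, 48 h and 7 d, 0 members and 0% of all genes passed in edgeR, 0 members passed in DESeq2, and 3, 2 and 0 members had an unadjusted p under 0.05. In sham, Ccnd1 made up 69.0% of the D-type counts in the KO and 78.9% in the WT, which did not pass (two-sided exact permutation p = 0.0476, adjusted p = 0.155). That test takes no account of sex, and with sex in the model the level of Ccnd1 in sham differed by -0.57 (edgeR adjusted p = 0.563).

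Other genes of G1 control were read from a list of 31 inhibitors, retinoblastoma family members, E2F factors and activators, of which 30 were tested. At 48 h, 6 of 30 rose and 0 fell in the WT, and 8 rose and 0 fell in the KO. Of all genes, 4.68% were called higher in the WT and 2.3% in the KO. In the WT these included Rbl1, which encodes p107 (2.26), and the E2F factor E2f7 (2.22), both called in all fits that left out 1 library (edgeR). In the KO they included E2f1, an activating E2F factor (2.85), E2f7 (2.21) and Cdc25a, the phosphatase that activates Cdk2 (1.49), which also held in those fits. Cdc25a and Cks1b rose in both genotypes at 48 h, although the Cks1b call was lost in 6 of 9 such fits in the WT and 3 of 9 in the KO. The count of list genes that passed in the KO at 48 h was 3 without KO 48 h replicate 1. In the WT it was 4 without WT sham replicate 1 or WT 48 h replicates 1 or 4, 7 without WT 48 h replicate 3, and 1 with the compared groups alone. The median over the 30 genes was 0.60 in the WT and 0.35 in the KO, beside 0.07 and -0.01 over all genes. In the WT at 24 h and in both genotypes at 7 d 0 of the 30 passed.

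At 24 h in the KO, 8 of the 30 rose and 3 fell, where 15.9% of all genes were called higher and 12% lower. E2f4, a factor that pairs with p107 and p130 (1.33), Cks1b, a small partner of the cell cycle kinases (1.92), Cdc25a (1.41) and the F-box gene Fbxo4 (0.92) rose with edgeR adjusted p from 6.94e-05 to 0.000396. The others that rose were E2f3, Cdk7, Mnat1 and Cdkn1a. Ccnh, cyclin H (-0.91), Rbl2, which encodes p130 (-0.80), and Cdkn1c, which encodes p57 (-0.80), fell. The Ccnh call held in all 9 fits that left out 1 library, that of Rbl2 in 4 and that of Cdkn1c in 3. The Mnat1 call held in 2 and that of Cdk7 in 4, and those of the other 6 genes that rose in all 9. Of the 30, 18 passed without KO 24 h replicate 1, 7 without KO sham replicate 1, KO 24 h replicate 3 or KO 24 h replicate 4, and 4 with the compared groups alone. The interaction at 24 h passed for 3 of the 30, where 8.47% of all genes did (5.52% higher and 2.96% lower). They were E2f4 (1.82), Cks1b (1.78) and Cdkn1a, which encodes the kinase inhibitor p21 (4.93). The Cdkn1a value ranged from 1.85 to 6.14 when 1 library was left out and passed in 8 of those 17 fits, against 16 for E2f4, lost without WT 24 h replicate 3, and 12 for Cks1b. KO livers at 24 h had 64.9 to 605 CPM of Cdkn1a and WT livers 2.96 to 25.4 CPM, so a high level of this inhibitor stood beside the high Ccne1. Between the genotypes at 24 h, 9 of the 30 were higher in the KO and 2 lower, where 11.1% of all genes were called higher and 7.5% lower. The 2 lower genes were E2f6 (-0.98) and E2f1 (-2.09). The E2f1 difference was -0.58 without WT 24 h replicate 2 (adjusted p = 0.620), and the E2f6 call was lost without KO 24 h replicate 3 or 4. The E2f4 and Cks1b differences passed in all 7 fits that left out 1 library. The list count there was 11, and became 15 without KO 24 h replicate 1, 7 without WT 24 h replicate 3, 2 without KO 24 h replicate 4 and 0 with the compared groups alone.

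At 6 h the list moved little, with 2 of the 30 called in each genotype. Of all genes, 7.86% passed there in the WT and 6.62% in the KO. In the WT Fbxo4 rose (0.94) and Cdkn2c, which encodes the Cdk4 and Cdk6 inhibitor p18, fell (-2.14), and in the KO Cdkn1a (3.28) and E2f3 (1.19) rose. Both WT calls were lost without WT 6 h replicate 3, and the KO calls held in 1 (Cdkn1a) and 2 (E2f3) of 8 fits that left out 1 library. WT livers at 6 h had 162 to 281 CPM of Cdkn1a and KO livers 184 to 222 CPM, against 1.19 to 132 and 3.63 to 62.8 CPM in sham. Averaged over the stages, 1 of the 30 passed between the genotypes, where 2.72% of all genes did. It was E2f5, higher in the KO (0.64, edgeR adjusted p = 0.00519), and it passed in all 37 fits that left out 1 library.

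The members were then set beside genes of S-phase entry and of mitosis. At 48 h, 15 of 22 S-phase genes rose in the WT and 18 in the KO, and 12 and 11 of 12 mitosis genes. The shares of all genes called higher were 4.68% in the WT and 2.3% in the KO. The S-phase count in the WT was 2 without WT 48 h replicate 4 and 18 without replicate 3, and in the KO it stayed between 14 and 18 when 1 library was left out. The mitosis count was 12 in the WT in each such fit, and ran from 6, without KO 48 h replicate 1, to 12 in the KO. With the compared groups fitted alone, both WT counts were 0, in a fit where 365 genes passed, and the KO counts were 20 for S phase and 10 for mitosis. At 24 h in the KO 1 of 22 S-phase genes rose and 3 fell, and no mitosis gene of 12 rose and 2 fell. Of all genes, 15.9% were called higher there and 12% lower. Without KO 24 h replicate 1, 5 S-phase genes and 1 mitosis gene passed there. The summed S-phase genes were at 164, 101, 91.6 and 108 CPM in the KO at 24 h, against 106 to 242 CPM in KO sham and 680, 456, 437 and 288 CPM at 48 h. At 24 h in the KO the S-phase sums thus lay within or below the sham range while Ccne1 lay above its own, and at 48 h both lay above. In the WT at 24 h the sums were 166, 444 and 138 CPM. The 48 h livers of the WT had sums of 346, 262, 90.8 and 611 CPM. WT 48 h replicate 3, with the lowest S-phase sum and 5.61 CPM of the summed mitosis genes against 86.0 to 451 CPM in its group, still had 196 CPM of Ccnd1 and 17.3 CPM of Cdk6, in the range of the group.

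Across the 37 libraries, which share group structure and scaling, the members tracked different genes. The genes most like Cdk2 were Rfc3 (Pearson r = 0.905), Mcm7 (0.856) and Cenpl (0.848), and those most like Ccne2 were Atad2 (0.920), Cenpq (0.895) and Zfp367 (0.886). Rfc3 and Mcm7 act in DNA replication. Ccne1 was most like Paxip1 (0.842), Ccnyl1 (0.818) and Cks1b (0.812), and Ccnd1 was most like Paqr4 (0.751), Timeless (0.711) and Akr1c18 (0.704). Cdk6 was most like E130308A19Rik (0.851), Hmgb3 (0.808) and Krba1 (0.780), Cdk4 most like Mlst8 (0.815), and Ccnd3 most like Map3k11 (0.789). Among the members the closest pair was Ccne2 and Cdk2 (0.713), while Ccne1 and Ccne2 had an r of 0.256 and Cdk4 and Cdk6 of 0.142. These correlations are of log2(CPM + 1) and describe the libraries at hand.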

How the data were processed

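RNA sequencing counts of 37 mouse livers were used as deposited. The submitters' processing notes name STAR 2.5.3a, RSEM 1.3.0 and the genome GRCm38. Which tool made the counts, the annotation release, the strand setting and the filters are not given in the sources used here. The deposited whole numbers were taken as rounded expected counts. Libraries were made with a stranded mRNA kit, per the labels' protocols.

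Genes passing filterByExpr (15564) were scaled by TMM and fitted in R 4.3.3 with edgeR 4.0.16, in a single robust quasi-likelihood model with terms for group (10) and sex. The Benjamini-Hochberg adjustment covered every tested gene, and calls were made at 0.05. Intervals are 95% intervals. Shares within a family were compared by two-sided exact permutation tests.

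The members and the gene lists were chosen with earlier results of these data known. Named beyond the members were Nox4, up to 4 list genes per direction and comparison with the smallest p, and the 3 genes most correlated with each member, of 11668 averaging 1 CPM or more. Other names were chosen after their values were seen. Alternatives were RLE scaling, DESeq2 1.42.0, omission of the sex term or of the count filter, the compared groups alone, males alone, no 6 h sham livers, transcript length for shares, and leaving out each library. On simulated data, 81% of 4-fold and 34% of 2-fold changes were recovered for the KO at 24 h against sham. The rates were 88% and 30% for the KO at 48 h, and 86% and 28% for the WT at 48 h. The genes changed there averaged at least 1 CPM, and no sex effect or other group difference was simulated. These rates need not hold for Ccne2, which averaged less, or for genes that differ by sex.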

Additional observations from a re-analysis of the deposited data

Results flagged for a closer look

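Among 40 sets of values of 1 member in 1 group of 4 or 5 livers, 1 value lay far from the others, and chance flags about 1 in 20 such sets. It was Cdk6 at 20.6 CPM in KO sham replicate 4, the sham liver taken at 72 h, where the other 4 sham livers had 7.16 to 10.5 CPM.

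For 3 members the change from sham to 24 h differed between the genotypes by an interaction test in edgeR: Ccne1 by 2.36, Ccnd2 by -1.60 and Ccne2 by -3.03 on the log2 scale. The Ccne1 response was larger in the KO, and the other 2 were lower there. WT 24 h replicate 3, without which none of the 3 passed, had the highest mitochondrial share of all libraries, 8.93%, the highest Ccnd2 level of all, 11.4 CPM, and the highest Ccne2 level of its group, 2.19 CPM. The part of that library's quality in these results was not tested.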

How the results depend on the processing

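No paired analysis was possible because the labels give no replicate numbers or animals, and replicates were numbered in accession order. The 42 member values recomputed were those with an unadjusted p under 0.05 in the fit of all libraries, whether called there or not. Of 787 recomputations, 653 kept direction and call, 111 lost the call, 23 gained one and 0 turned sign. The 653 include values that were not called in either fit. Values averaged over the stages or compared by sex were refitted without each of 37 libraries, and so weigh most. Most recomputations left out only 1 library, so the tally is not a test of direction.

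The number of members called moved with the setting in these comparisons. For the WT at 6 h, 1 member passed, against 2 with DESeq2, without the sex term or without the 6 h sham livers, 0 with the compared groups alone or males alone, and 0 to 2 when 1 library was left out. For the WT at 48 h, 3 passed, against 0 without the count filter, 1 with the groups alone, 0 with males alone, and 0 to 2 when 1 library was left out, so no such fit kept all 3. For the KO at 6 h, 2 passed, against 1 with RLE scaling, without the count filter or without the sex term, 0 with the groups alone or males alone, and 0 to 3 when 1 library was left out. For the KO at 24 h, 3 passed, against 1 with the groups alone, and for the KO at 48 h the count of 4 ran from 3 to 5 when 1 library was left out. Between the genotypes at 6 h, 0 passed, against 2 with DESeq2, 1 without the 6 h sham livers, and 0 to 1 when 1 library was left out. At 24 h, 2 passed, against 1 without the count filter, 0 with the groups alone, and 1 to 3 when 1 library was left out. Averaged over the stages, 0 passed, against 1 with DESeq2 or without the 6 h sham livers, and 0 to 1 when 1 library was left out. For the interaction at 24 h, 3 passed, against 0 without the count filter, 1 without the sex term, 0 with the groups alone or males alone, and 0 to 3 when 1 library was left out. Fits of fewer libraries have fewer degrees of freedom; the cause of the other changes was not tested. No share within a family passed under any setting. The lowest counts, 2 to 141 reads for Ccne2, limit what can be said of that gene.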
